A study of Xenopus laevis with 6 samples.

Results

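DNA damage repair genes were read out in the testis of the African clawed frog Xenopus laevis after long exposure to the herbicide atrazine. The set was chosen by name: every row of the deposited mRNA table whose symbol began with or equalled a fixed pattern of repair gene names (fanc, xrcc, ercc, xpa, brca, atm, atr, rad1, rad9, rad17, rad50, rad52, mre11, nbn, rbbp8, msh6, pms, ung, ogg1, neil, nthl1, apex, lig3, lig4, prkdc, chek, tp53bp1, blm, wrn, exo1, ddb, parp1, parp2, parp3 and related names), or whose description named Fanconi anemia. It held 73 of 31598 rows, for 68 distinct symbols. The study compared 3 testis libraries of animals kept in 100 µg/L atrazine for 180 days with 3 libraries of controls with no exposure named. The stage given for all 6 is postnatal day 193, which the labels write as 13 plus 180 days. Ribosomal RNA was removed and a stranded kit was used for sequencing. Nothing in the labels ties a library to an animal of its own, so p-values measure only the spread between these libraries, which may be technical.

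DNA repair is divided by the lesion it acts on. Glycosylases and the AP endonuclease remove damaged bases, the ERCC and XP proteins cut out bulky adducts, the Fanconi anemia proteins unhook interstrand crosslinks, and mismatch repair corrects replication errors. Double-strand breaks are joined directly by the Ku pathway or repaired from an intact copy of the same sequence, and the ATM and ATR kinases hold the cell cycle while this happens. In the testis, breaks are also made on purpose in meiotic spermatocytes, which repair them by recombination, whereas late spermatids pack their DNA with sperm proteins and shut down most transcription. Xenopus laevis is allotetraploid, so many genes have a copy on an L and on an S chromosome, and the suffixes .L and .S name them.

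An FPKM value is a count of fragments per kilobase of transcript, scaled to the size of the library. From the step between low values, the mRNA table rests on an estimated 7360616 reads in atrazine 3, the shallowest library, and on 13784654 to 17018677 in the others. Of the tested repair rows, 65 had at least 100 estimated reads in every library. The tissue label was met by germ cell markers: the germ line RNA helicase ddx4.L ranged over 263 to 424 FPKM, dazl.L over 445 to 484 FPKM and the synaptonemal complex gene sycp3.L over 96.2 to 129 FPKM, while of the copies of the meiotic break gene, spo11.L (row LOC108700917) ranged over 3.999 to 10.2 FPKM and spo11.S was at 0 in all 6 libraries. The libraries did not separate by group: control 1 correlated most closely with atrazine 1, at 0.987 across genes, and control 2 least closely with atrazine 2, at 0.955. Genes are not independent replicates, so these correlations are descriptions.

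The names of some rows do not match the gene numbers they carry. The names nthl1.S, nthl1.S_2 and nthl1.S_3 stand on chromosomes 4L, 7L and 9_10L, and all 3 rows carry a gene number that assembly v10.1 gives to psmc3.L, a proteasome subunit. In the deposited coordinates nthl1.S lies 0 bases from tmem178.2.L, its nearest neighbour, and 12536 bases from nup160.L. The nearest neighbour of nthl1.S_2 is dedd2.L, 78358 bases away, and that of nthl1.S_3 is pkd1.L, 82441 bases away. From its neighbour pkd1.L, nthl1.S_3 is described with the DNA glycosylases, and nthl1.S and nthl1.S_2 are set apart. Which gene each of these rows measures was not tested. The rows xrcc1 and xrcc1_2 carry the gene number of xndc1.l, so the single-strand break scaffold was read from xrcc1.L. Its S copy has only a LOC name in the deposited table, and its values are given beside those of xrcc1.L. In all, 6 rows have a suffix that goes against their chromosome, and 5 lie on unplaced sequences. The pattern also takes genes outside repair in the strict sense, among them the bleomycin hydrolase blmh.S and the ADP-ribosyltransferases parp11.L, parp12.L, parp14 and parp16.L.

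The repair rows chosen by name were well expressed in these testes. A row entered the test when 3 or more libraries had 0.5 FPKM or more, which 72 of the 73 did, against 23824 rows of the whole table. The remaining row, xrcc1_2, was at 0 FPKM in all 3 atrazine libraries and in control 2, and at 1.12 and 0.733 FPKM in control 1 and control 3. The median tested repair row stood at the 73.6th percentile of mean FPKM over all tested rows, and 57 of 72 were above the median level of the table. Other rows have a LOC name but a repair symbol in v10.1, and 26 of these were tested. Their median stood at the 50.5th percentile, and 13 were above the median level. Mean levels ran from 1.37 FPKM for the row named xrcc1 to 169.7 FPKM for fancd2os.S, a small gene beside fancd2.L, and 22 rows reached 30 FPKM. Within roles the spread was wide. Among the Fanconi anemia proteins faap24.L averaged 115 FPKM and the Fanconi group E-like row LOC108708145 averaged 1.79 FPKM. The 5 highest rows were fancd2os.S, faap24.L, the Ku70 gene xrcc6.L, parp11.L and the uracil glycosylase ung.L. These levels are per length, so rows can be compared with each other.

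**Figure D1:**
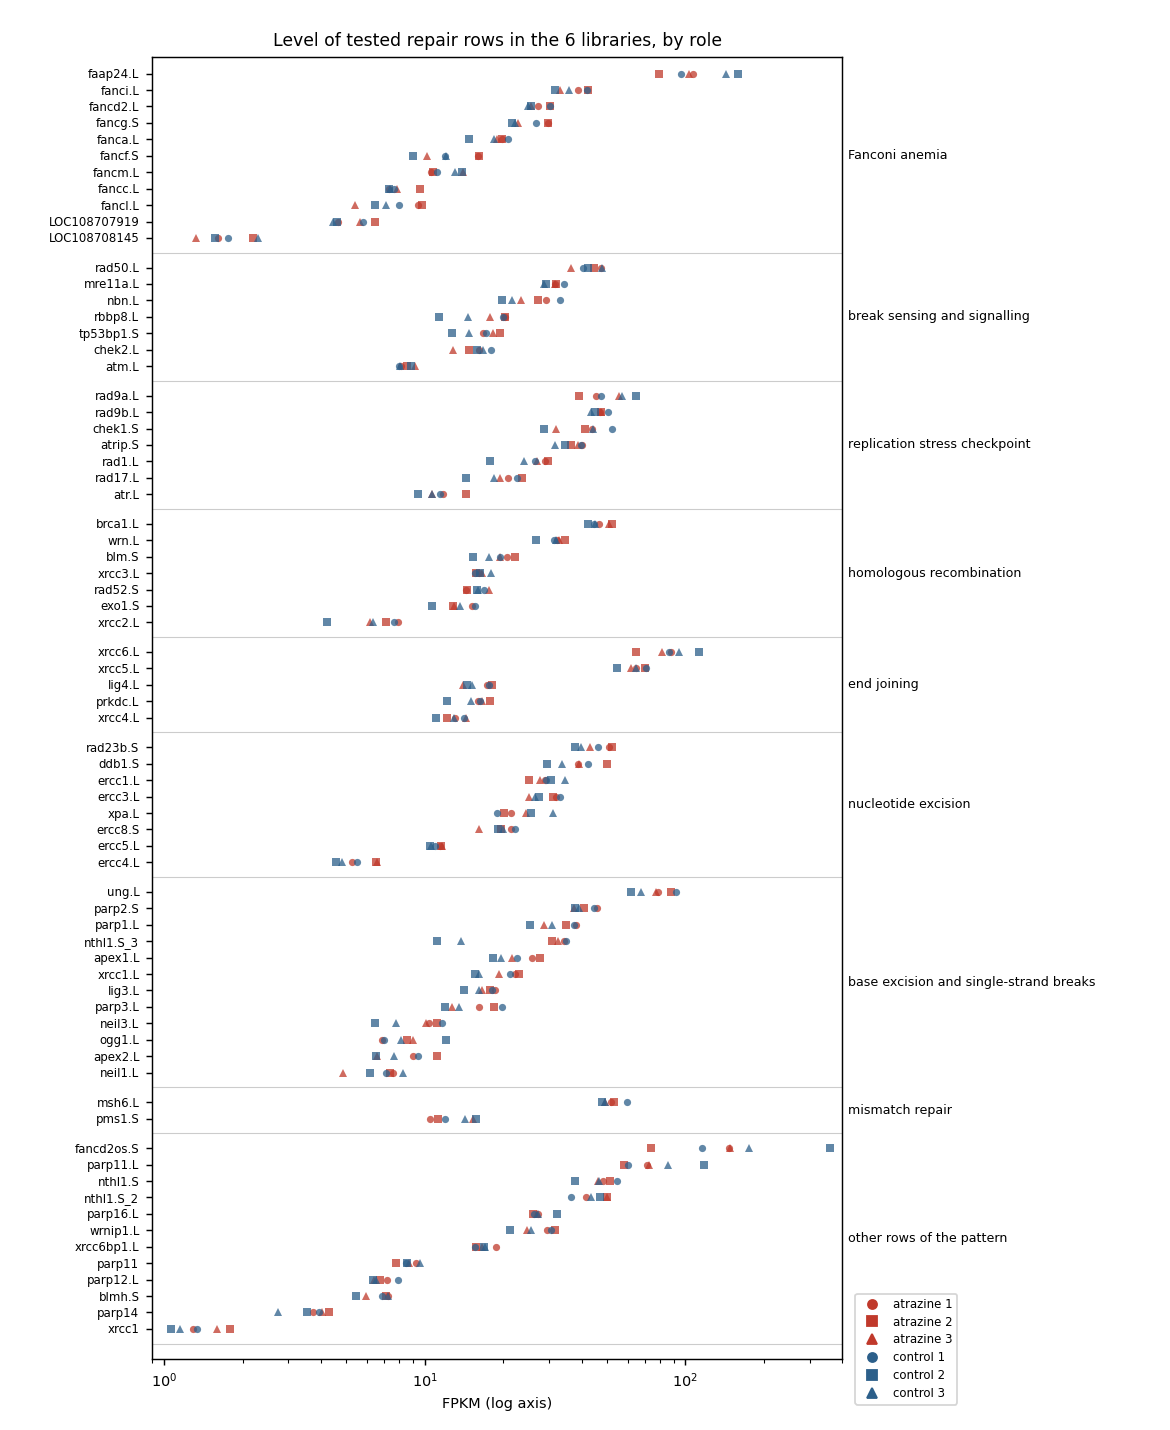
FPKM of 71 tested repair rows in the 6 libraries, on a log axis, grouped by role and ordered by mean level; red marks are atrazine libraries and blue marks control libraries, with the marker shape giving the replicate. The 6 marks of a row usually lie close together, and the widest rows are fancd2os.S and nthl1.S_3.

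No repair row passed the test for a difference between atrazine and control. Fold changes are differences of means of log2(FPKM + 1), atrazine minus control, a scale that understates changes of low rows, tested with limma in 1 model over all tested rows with Benjamini-Hochberg adjustment. With limma, 0 of 72 repair rows had an adjusted p under 0.05, and 0.0% of all 23824 rows did. At an unadjusted p under 0.05 there was 1 repair row, nthl1.S_3, against 5.92% of all rows. More repair rows had a higher than a lower atrazine mean, 50 against 22, beside 57.3% higher over all rows. The median log2 fold change was 0.08 for repair rows and 0.04 for all tested rows. Of the 72, 60 have a role in repair, and among these 43 had the higher mean with atrazine and 17 the lower, with a median of 0.11. In bulk tissue, fewer cells of a type and less RNA per cell cannot be told apart.

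The intervals were narrow for most repair rows. The 95% interval of the fold change lay within 2-fold in either direction for 70 of 72 rows, against 93.8% of all tested rows. It lay within 1.5-fold for 54, against 61.2% of all tested rows. The repair rows were also at a higher level, with a median of 19.6 FPKM against 8.85 FPKM for all tested rows. Whether level accounts for the narrower intervals was not tested. The exceptions to the 2-fold bound were nthl1.S_3 and fancd2os.S. Over all 6 libraries the highest value of a repair row was a median of 1.45 times its lowest, where the median over all tested rows was 1.69 times. Ranges above 2-fold were seen in 4 repair rows, namely fancd2os.S, nthl1.S_3, parp11.L and faap24.L. In 4 rows all 3 atrazine values lay above all 3 control values (rad1.L, brca1.L, wrn.L and ercc5.L), where 6.63% of all tested rows did. In 1 row, ercc1.L, all 3 lay below, where 4.66% of all tested rows did. Together these are 6.94% of repair rows against 11.3% of all rows.

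**Figure D2:**
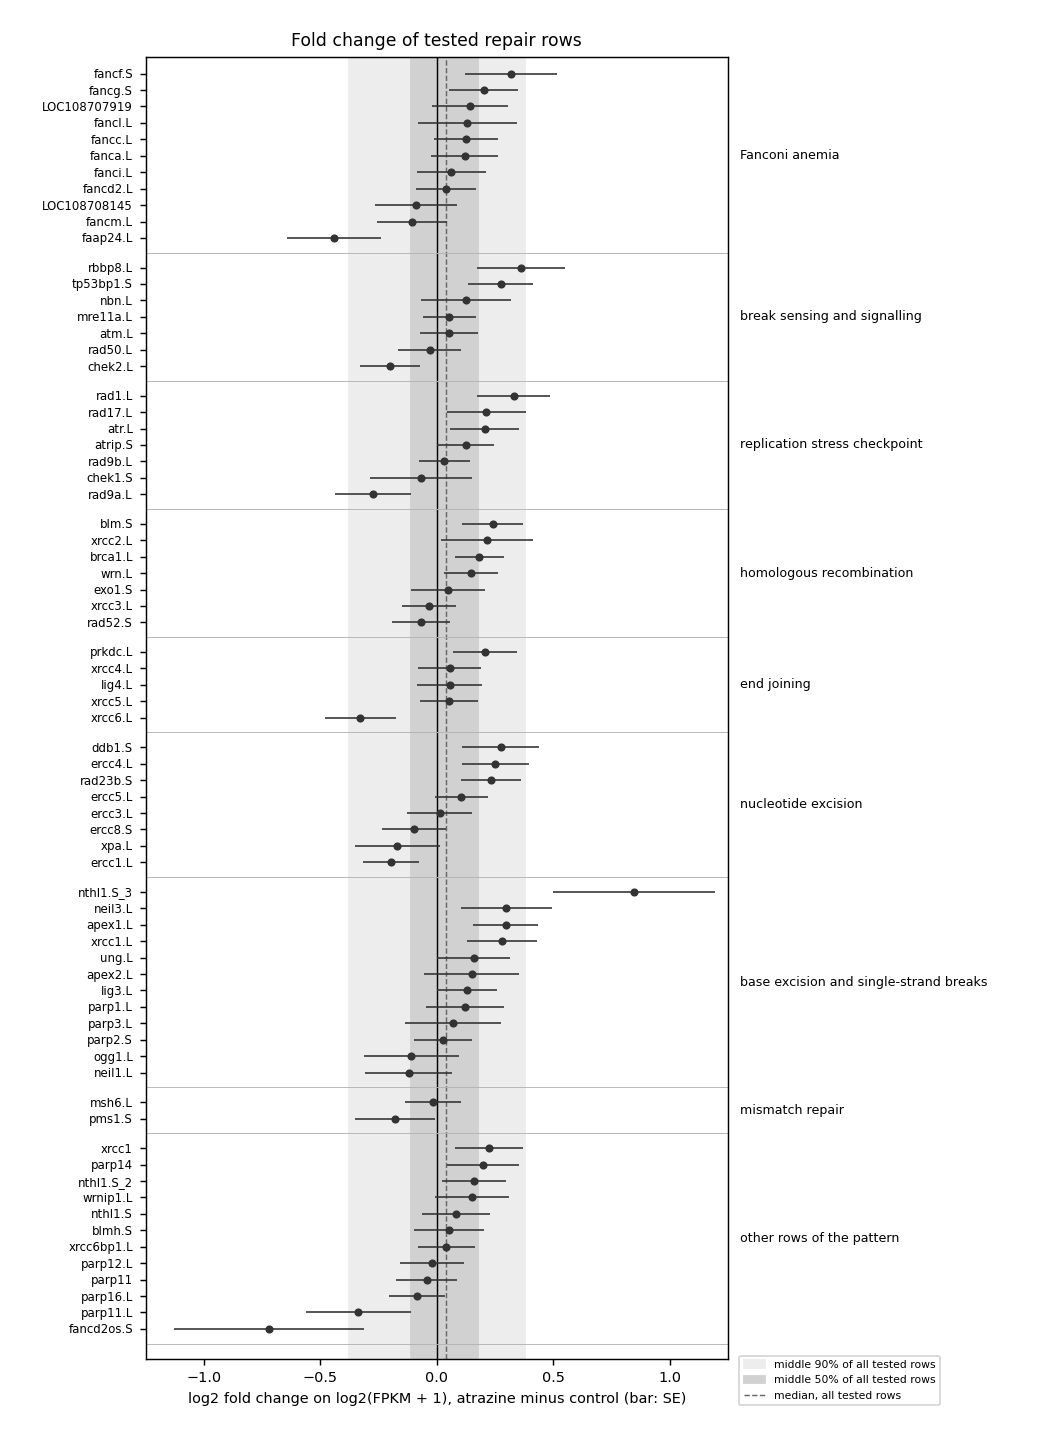
Log2 fold change on log2(FPKM + 1), atrazine minus control, of 71 tested repair rows by role, with bars of 1 SE; the grey bands hold the middle 50% and 90% of all tested rows and the dashed line is their median. Most rows lie within the bands; nthl1.S_3 at 0.85, faap24.L at -0.44 and fancd2os.S at -0.72 lie outside the 90% band, and no row had an adjusted p under 0.05.

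Values of single rows are given in the order of replicates 1, 2 and 3. Of the 11 Fanconi anemia rows, 8 had the higher mean with atrazine and 3 the lower, and the median log2 fold change was 0.12. The row with the smallest p was faap24.L, which helps the translocase FANCM bring the core complex to DNA, at 107, 79.2 and 103 FPKM with atrazine and 96.6, 159 and 143 FPKM in the controls. Control 2 and control 3 stood above all other libraries, and control 1 lay within the atrazine range. The log2 fold change of faap24.L was -0.44 ± 0.20 (SE, n = 3 and 3), which did not pass (limma, unadjusted p = 0.0574, adjusted p = 0.693). Its partner fancm.L was at 10.6, 10.8 and 14.0 FPKM with atrazine and 11.1, 13.9 and 13.1 FPKM in the controls, with overlapping groups. The core complex genes fanca.L, fancc.L, fancf.S and fancg.S had log2 differences of 0.12, 0.13, 0.32 and 0.20, and the ubiquitin ligase fancl.L had 0.13. The group B-like row LOC108707919 and the group E-like row LOC108708145 had 0.14 and -0.09. The substrates of that ligase, fancd2.L and fanci.L, had 0.04 and 0.06.

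Among the 7 rows of break sensing and signalling, 5 had the higher mean with atrazine, and the median log2 fold change was 0.05. The gene rbbp8.L, whose product CtIP starts the resection of broken ends, was at 20.3, 20.4 and 17.8 FPKM with atrazine and 19.9, 11.3 and 14.7 FPKM in the controls. Control 1 was among the atrazine values and control 2 was the lowest of the 6. Its log2 fold change was 0.36 ± 0.19 (SE, n = 3 and 3) and did not pass (limma, unadjusted p = 0.0916, adjusted p = 0.693). It was 0.18 without control 2 and 0.56 without control 1. The gene tp53bp1.S, whose product protects ends from resection, was at 16.8, 19.5 and 18.3 FPKM with atrazine and 17.2, 12.8 and 14.8 FPKM in the controls, with a log2 fold change of 0.28 ± 0.14 (SE, n = 3 and 3; limma, unadjusted p = 0.0820, adjusted p = 0.693). Again only control 1 reached the atrazine range, and without control 2 the fold change was 0.18. The checkpoint kinase gene chek2.L was the row of this role with the most negative difference, at 16.1, 14.8 and 12.9 FPKM with atrazine and 18.0, 15.9 and 16.7 FPKM in the controls. Its groups overlapped at atrazine 1 and control 2, and the log2 fold change was -0.20 ± 0.13 (SE, n = 3 and 3; limma, unadjusted p = 0.158, adjusted p = 0.694), or -0.12 without atrazine 3. The MRN complex genes mre11a.L, rad50.L and nbn.L had log2 differences of 0.05, -0.03 and 0.13, and the kinase gene atm.L had 0.05.

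The replication stress checkpoint was represented by 7 rows, 5 with the higher mean with atrazine, and a median log2 fold change of 0.12. The gene rad1.L, a subunit of the ring-shaped 9-1-1 clamp, was at 28.9, 29.6 and 26.9 FPKM with atrazine and 26.5, 17.7 and 24.0 FPKM in the controls. The groups did not overlap, by a margin of 26.9 against 26.5 FPKM, and control 2 was well below the rest. Its log2 fold change was 0.33 ± 0.16 (SE, n = 3 and 3; limma, unadjusted p = 0.0661, adjusted p = 0.693), and 0.17 without control 2. A second clamp subunit, rad9a.L, differed the other way, at 45.4, 39.0 and 55.4 FPKM with atrazine and 47.5, 64.8 and 56.9 FPKM in the controls. Here control 2 was the highest library and atrazine 2 the lowest. Its log2 fold change was -0.27 ± 0.16 (SE, n = 3 and 3; limma, unadjusted p = 0.133, adjusted p = 0.693), with -0.17 when control 2 and -0.15 when atrazine 2 was left out. The related rad9b.L was nearly level, at 43.3 to 50.6 FPKM over the 6 libraries. The clamp loader gene rad17.L and the kinase gene atr.L had log2 differences of 0.21 and 0.21. The kinase gene chek1.S was at 43.8, 41.1 and 31.9 FPKM with atrazine and 52.3, 28.7 and 44.2 FPKM in the controls, so that control 1 was the highest and control 2 the lowest of all 6.

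Homologous recombination had 7 rows, 5 of them with the higher mean with atrazine, and a median log2 fold change of 0.15. The tumour suppressor gene brca1.L was at 46.7, 52.3 and 51.0 FPKM with atrazine and 44.5, 42.1 and 45.0 FPKM in the controls. All 3 atrazine values lay above the controls, the lowest by 46.7 against 45.0 FPKM, and the log2 fold change was 0.18 ± 0.11 (SE, n = 3 and 3; limma, unadjusted p = 0.121, adjusted p = 0.693). The RecQ helicase gene wrn.L was at 32.3, 34.5 and 32.7 FPKM with atrazine and 31.3, 26.7 and 31.8 FPKM in the controls, also without overlap, with a log2 fold change of 0.15 ± 0.12 (SE, n = 3 and 3; limma, unadjusted p = 0.236, adjusted p = 0.714), which was 0.07 without control 2. A second RecQ helicase gene, blm.S, was at 20.6, 22.3 and 19.4 FPKM with atrazine and 19.5, 15.3 and 17.7 FPKM in the controls, and its groups overlapped only through control 1. Its log2 fold change was 0.24 ± 0.13 (SE, n = 3 and 3; limma, unadjusted p = 0.101, adjusted p = 0.693), or 0.15 without control 2. The recombination genes xrcc2.L and xrcc3.L, the nuclease gene exo1.S and the annealing factor rad52.S had log2 differences of 0.22, -0.03, 0.05 and -0.07.

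End joining joins broken ends without a template, and its rows were of both signs. The Ku70 gene xrcc6.L was at 88.3, 64.5 and 81.1 FPKM with atrazine and 86.8, 112 and 94.4 FPKM in the controls. Control 2 was the highest and atrazine 2 the lowest, and atrazine 1 lay above control 1. The log2 fold change was -0.33 ± 0.15 (SE, n = 3 and 3; limma, unadjusted p = 0.0617, adjusted p = 0.693), and -0.20 without atrazine 2. Its partner in the Ku ring, xrcc5.L, was at 64.7, 69.8 and 61.8 FPKM with atrazine and 70.5, 54.7 and 64.7 FPKM in the controls, with a log2 fold change of 0.05. The ratio of xrcc6.L to xrcc5.L in FPKM was 1.36, 0.924 and 1.31 with atrazine and 1.23, 2.06 and 1.46 in the controls. The groups of this ratio overlapped. The catalytic kinase gene prkdc.L had a log2 difference of 0.21, and the ligase pair lig4.L and xrcc4.L had 0.05 and 0.06. Of the 5 rows, 4 had the higher mean with atrazine, and the median was 0.05.

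Nucleotide excision repair had 8 rows, 5 with the higher and 3 with the lower mean with atrazine, and a median log2 fold change of 0.06. The gene ercc1.L encodes the non-catalytic partner of the nuclease ercc4.L. It was at 29.0, 25.0 and 27.7 FPKM with atrazine and 29.1, 30.5 and 34.6 FPKM in the controls, with the groups apart by 29.0 against 29.1 FPKM. On the log2 scale the difference was -0.20 ± 0.12 (SE, n = 3 and 3; limma, unadjusted p = 0.136, adjusted p = 0.693), or -0.13 without control 3. The nuclease gene ercc4.L lay the other way, at 5.27, 6.48 and 6.58 FPKM with atrazine and 5.50, 4.58 and 4.80 FPKM in the controls, with a log2 fold change of 0.25 ± 0.14 (SE, n = 3 and 3; limma, unadjusted p = 0.118, adjusted p = 0.693). A second nuclease gene, ercc5.L, was at 11.4, 11.5 and 11.7 FPKM with atrazine and 10.9, 10.5 and 10.5 FPKM in the controls: the groups did not overlap, but the log2 fold change was only 0.11 ± 0.11 (SE, n = 3 and 3; limma, unadjusted p = 0.380, adjusted p = 0.776), and 0.06 with median-of-ratios scaling. The damage sensor genes ddb1.S and rad23b.S had log2 differences of 0.27 and 0.23, the scaffold gene xpa.L had -0.17, and the helicase gene ercc3.L had 0.01.

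Base excision and single-strand break repair had 12 rows, 10 of them with the higher mean with atrazine, and a median log2 fold change of 0.14. The largest difference of any repair row belonged to nthl1.S_3, named for a glycosylase of oxidised pyrimidines and placed at chromosome 9_10L from 108118303 to 108124525 in the files' coordinates. It was at 34.4, 30.8 and 32.5 FPKM with atrazine and 35.0, 11.1 and 13.8 FPKM in the controls. The 3 atrazine libraries and control 1 were close together, and control 2 and control 3 were far below them. A log2 fold change of 0.85 ± 0.35 (SE, n = 3 and 3) resulted, which did not pass after adjustment (limma, unadjusted p = 0.0396, adjusted p = 0.693). Without control 1 it was 1.32 and passed (limma, adjusted p = 0.0457), and without control 2 it was 0.54.

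The AP endonuclease gene apex1.L, which cuts the strand after a base is removed, was at 25.8, 27.7 and 21.6 FPKM with atrazine and 22.6, 18.3 and 19.7 FPKM in the controls. Only atrazine 3 fell among the controls, and the log2 fold change was 0.29 ± 0.14 (SE, n = 3 and 3; limma, unadjusted p = 0.0626, adjusted p = 0.693). The scaffold gene xrcc1.L was at 22.2, 23.1 and 19.2 FPKM with atrazine and 21.2, 15.5 and 16.1 FPKM in the controls, with overlap through atrazine 3 and control 1, and a log2 fold change of 0.28 ± 0.15 (SE, n = 3 and 3; limma, unadjusted p = 0.0954, adjusted p = 0.693). Its ligase partner lig3.L had a log2 difference of 0.13. The S copy of xrcc1 (row LOC108704966) stood above xrcc1.L in all 6 libraries. It was at 26.6, 29.2 and 27.2 FPKM with atrazine and 21.9, 25.7 and 28.8 FPKM in the controls, with overlapping groups. The log2 fold change of this copy was 0.12 ± 0.13 (SE, n = 3 and 3; limma, unadjusted p = 0.370, adjusted p = 0.771). The uracil glycosylase gene ung.L, the highest of this role, was at 78.7, 87.9 and 77.1 FPKM with atrazine and 92.2, 61.7 and 67.3 FPKM in the controls, with control 1 the highest of the 6. Its log2 fold change was 0.16 ± 0.16 (SE, n = 3 and 3; limma, unadjusted p = 0.348, adjusted p = 0.761). With 1 library left out it ran from 0.04 (control 2) to 0.33 (control 1), with 0.10 when atrazine 2 or control 3 was left out. Of the other glycosylases, neil3.L had a difference of 0.30, neil1.L of -0.12 and the 8-oxoguanine glycosylase gene ogg1.L of -0.11. The break sensors parp1.L, parp2.S and parp3.L had 0.12, 0.03 and 0.07.

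Of the mismatch repair genes, msh6.L, whose product helps recognise mispaired bases, was at 52.0, 53.3 and 49.0 FPKM with atrazine and 59.5, 48.0 and 49.3 FPKM in the controls. The gene pms1.S, named for a MutL family protein, was at 10.4, 11.3 and 15.3 FPKM with atrazine and 12.0, 15.7 and 14.3 FPKM in the controls. The groups overlapped in both rows, and their log2 fold changes were -0.02 and -0.18.

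Ratios of mRNA FPKM were computed for 14 pairs of rows. These were genes of complex partners, or related or neighbouring genes, such as rad9a.L with rad9b.L and fancd2os.S with fancd2.L. The ratio of prkdc.L to xrcc5.L was 0.246, 0.255 and 0.269 with atrazine and 0.231, 0.222 and 0.232 in the controls, higher in each atrazine library. The exact two-sided permutation test gave p = 0.1, the smallest that 3 against 3 libraries allow, and a Benjamini-Hochberg value over the 14 ratios of 0.467. For the other pairs reported here the exact permutation p was 0.2 or more, among them fanci.L to fancd2.L, rad50.L to mre11a.L and xrcc1.L to lig3.L. The ratio of ercc1.L to ercc4.L was 5.50, 3.86 and 4.21 with atrazine and 5.29, 6.66 and 7.21 in the controls, and overlapped.

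Of the 12 tested rows outside these roles, 7 had the higher and 5 the lower mean with atrazine. The most variable repair row of the table was fancd2os.S, which lies 1716 bases from fancd2.L in the files' coordinates. It was at 147, 73.7 and 148 FPKM with atrazine and 116, 357 and 176 FPKM in the controls. Control 2 was far above the rest and atrazine 2 far below, and the groups overlapped. This gave a log2 fold change of -0.72 ± 0.41 (SE, n = 3 and 3; limma, unadjusted p = 0.114, adjusted p = 0.693), with -0.28 when control 2, -0.39 when atrazine 2 and -1.09 when control 1 was left out. The row parp11.L was at 70.9, 58.2 and 72.4 FPKM with atrazine and 60.2, 118 and 85.7 FPKM in the controls, again with control 2 highest and atrazine 2 lowest, and its log2 fold change was -0.34 ± 0.22 (SE, n = 3 and 3; limma, unadjusted p = 0.169, adjusted p = 0.696). Without control 2 it was -0.10 and without control 1 it was -0.58. Of the 3 rows with the psmc3.L gene number, nthl1.S and nthl1.S_2 had log2 differences of 0.08 and 0.16. The third, nthl1.S_3, had 0.85 and is counted with the base excision rows.

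Single libraries stood out more than groups. Control 2 was the lowest of the 6 libraries for 39 of 72 repair rows, or 54.2%, against 33.7% of all tested rows. It was the lowest in 9 of the 12 base excision rows and in 5 of the 7 homologous recombination rows. It was the highest in 8 repair rows, which were faap24.L, rad9a.L, xrcc6.L, ogg1.L, pms1.S, fancd2os.S, parp11.L and parp16.L. These 8 are 11.1% of repair rows, a smaller share than over all tested rows, where control 2 was highest in 4768 of 23824. Atrazine 2 was the highest in 25 repair rows, or 34.7%, against 26.4% of all tested rows. Control 1 was the highest in 18 of 72 repair rows, against 15.9% of all tested rows. Control 1 lay nearer to the atrazine mean than to the mean of the other controls in 61 of 72 repair rows, or 84.7%, against 68.0% of all rows. These shares were computed after the values had been seen and carry no test.

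**Figure D3:**
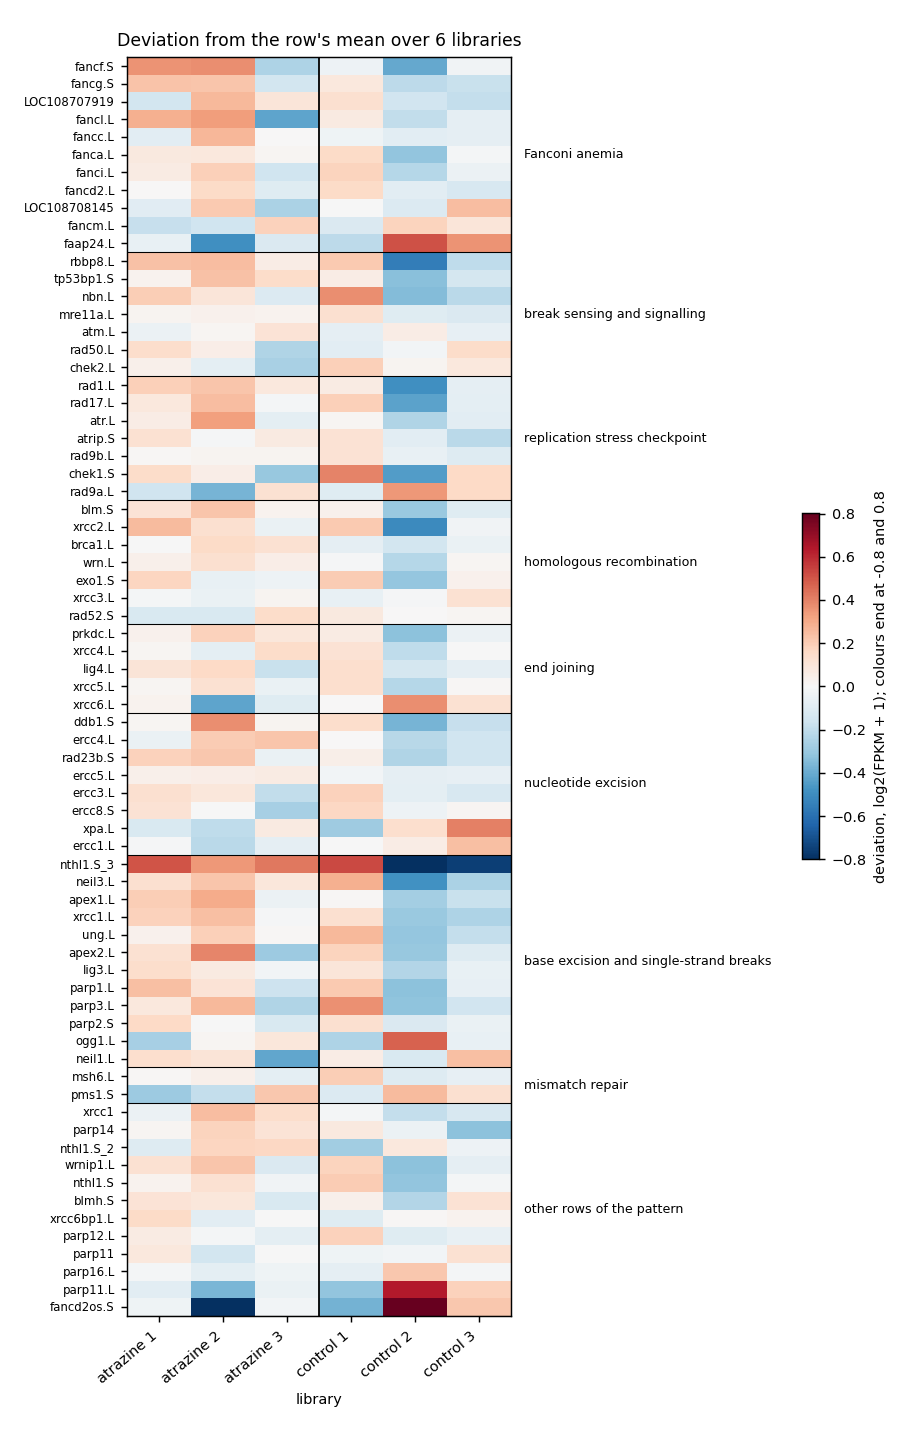
Deviation of log2(FPKM + 1) from the row's mean over the 6 libraries for 71 tested repair rows, red above and blue below, with rows grouped by role and ordered by fold change and the colours ending at -0.8 and 0.8. The control 2 column is blue in 39 rows that are lowest there and red in the 8 rows that are highest there, and the control 1 column resembles the atrazine columns.

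Counts for repair rows moved when single libraries were left out, from either group. Without control 1, 53 of 72 rows had the higher mean with atrazine, beside 58.1% of all rows. The median log2 fold change was then 0.15, against 0.06 for all rows. Then 20 repair rows, 27.8%, had an unadjusted p under 0.05, against 19.1% of all 23573 rows, and 1 (nthl1.S_3) had a limma adjusted p under 0.05, against 0.0212% of all rows. Without control 2, 39 rows had the higher and 33 the lower mean, and the median was 0.01, equal to that of all rows at 2 decimals. No repair row then had an unadjusted p under 0.05. Of the single libraries left out, control 2 gave the smallest median. The median of repair rows was 0.06 without atrazine 1, against 0.05 for all rows, and 0.05 without atrazine 2, against 0.02. Without atrazine 3, the shallowest library, 56 rows had the higher and 16 the lower mean, beside 57.3% higher over all rows. The median was then 0.12, against 0.04 for all rows, and 3 repair rows had a limma unadjusted p under 0.05. Without control 3 the median was 0.08, against 0.05, with 51 rows higher and 21 lower. Why the median moved was not tested.

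Markers of some other cell types differed between the same libraries. The spermatid and sperm list, 17 rows with none at 0, summed to 1239, 980.2 and 1332 FPKM with atrazine and 1556, 2685 and 2138 FPKM in the controls, and 16 of its rows had the lower mean with atrazine. The sperm protein gene sp4-c alone gave 290.4 to 1207 FPKM of these sums. As a mean of log2(FPKM + 1) the list had 5.65, 5.23 and 5.76 with atrazine and 5.67, 6.44 and 6.24 in the controls, and the groups overlapped through control 1. On both measures atrazine 2 was lowest and control 2 highest, as in faap24.L, xrcc6.L, rad9a.L, parp11.L and fancd2os.S. The germ cell list, 11 tested rows that include spo11.L and not spo11.S, had a mean log2(FPKM + 1) of 5.79, 5.85 and 5.69 with atrazine and 5.84, 5.42 and 5.44 in the controls. The 60 rows with a repair role had 4.47, 4.50 and 4.37 with atrazine and 4.50, 4.24 and 4.36 in the controls. In both list means, atrazine 2 was the highest library and control 2 the lowest, with control 1 close to atrazine 2. Not every germ cell row followed its mean. The row sycp3.L was lowest in atrazine 2, at 96.2 FPKM, and highest in control 2, at 129 FPKM. The recombination gene dmc1.L ran from 15.1 FPKM in control 3 to 82.1 FPKM in control 1. The mean of the 30 proliferation rows varied less, from 4.97 to 5.10 over the 6 libraries. Single rows of this list moved in both directions. From control 1 to control 2, cdk1.L rose from 109 to 185 FPKM and mcm7.L fell from 64.6 to 40.2 FPKM. The highest value of a row in this list was a median of 1.87 times its lowest. All 6 Leydig cell rows, for 6 of 7 symbols listed, had the lower mean with atrazine, summing to 132, 246 and 205 FPKM against 264, 279 and 285 FPKM. The row cyp17a1.L alone gave 66.5 to 157 FPKM of these sums, and its groups overlapped. In 3 of the 6 rows (star, hsd3b1.L and cyp11a1.S) all atrazine values lay below the controls, as in 4.66% of all tested rows. The range of star was 23.9 to 47.5 FPKM with atrazine and 63.2 to 72.9 FPKM in the controls. For hsd3b1.L it was 21.9 to 28.2 FPKM and 38.1 to 48.1 FPKM. With limma 0 of the 6 had an adjusted p under 0.05. The rows cyp11a1.S and lhcgr.S reached at most 2.25 and 1.34 FPKM. Control 2 also had the highest sum of the blood list, 1236 FPKM against 246.5 to 521 FPKM in the other libraries. In control 2 the globin rows hba1.L and hbg1.L gave 537 and 614 FPKM of it. The part of cell composition in the repair values was not tested.

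**Figure D4:**
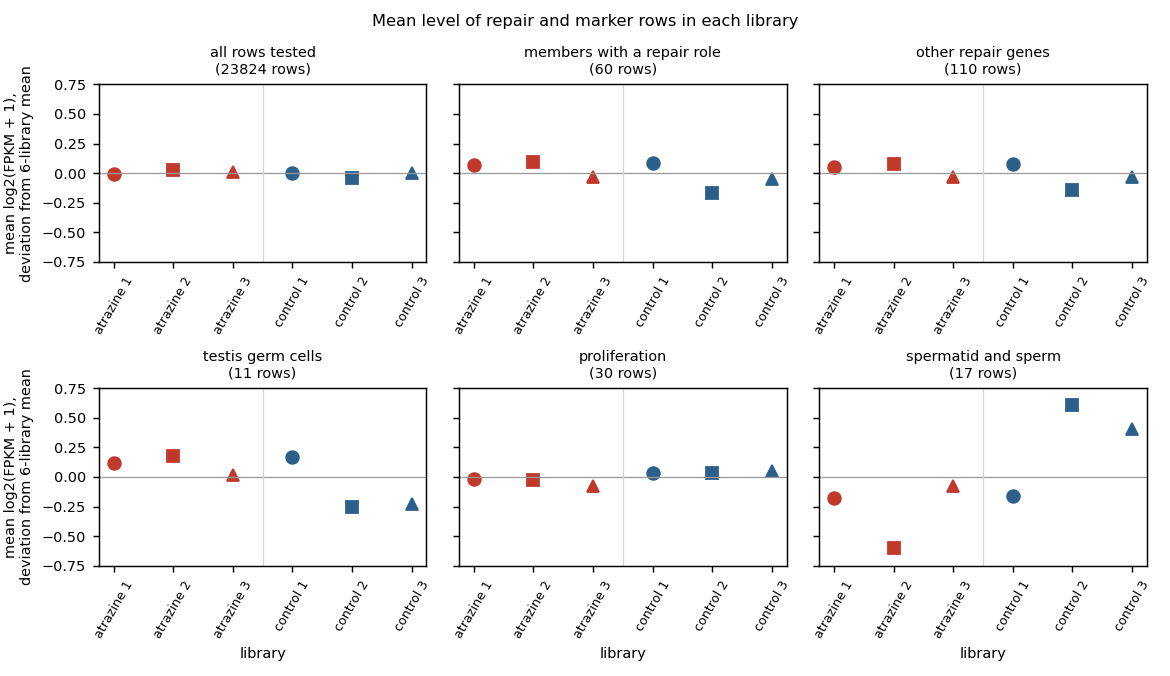
Mean log2(FPKM + 1) of 6 lists in each library, as the deviation from the list's mean over 6 libraries; red marks are atrazine and blue marks control libraries. Rows with a repair role, other repair genes and germ cell markers are lowest in control 2, spermatid and sperm markers are highest there, and the mean of all tested rows varies by less than any of these. The lists share rows: dmc1.L is in both the other repair genes and the germ cell markers, and pcna.L in both the other repair genes and the proliferation list.

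Repair genes outside the name pattern did not pass the test either. Of 93 symbols listed, 88 were found, in 110 tested rows. With limma 0 of these had an adjusted p under 0.05 and 3 an unadjusted p under 0.05, against 5.92% of all rows. The higher mean was with atrazine in 70 and with control in 40, beside 57.3% higher with atrazine over all rows, and the median log2 fold change was 0.07. The smallest p belonged to rpa1.S (row LOC108708846), which encodes the large subunit of the single-strand binding protein RPA, at 31.5, 20.3 and 28.1 FPKM with atrazine and 19.3, 13.3 and 16.0 FPKM in the controls. The groups did not overlap, and the log2 fold change was 0.68 ± 0.19 (SE, n = 3 and 3; limma, unadjusted p = 0.00703, adjusted p = 0.693). The dioxygenase gene alkbh2.L and the bypass polymerase gene rev1.L followed, with log2 fold changes of 0.45 and 0.39. On the lower side the smallest p values belonged to the phosphatase gene cdc25a.L (row LOC398141, on chromosome 6L), the ubiquitin ligase gene rnf168.S and the splicing and repair factor gene xab2.L, with -0.64, -0.35 and -0.31. The row deposited under the name cdc25a.L lies on 6S and had 0.24. The most abundant was the histone gene h2afx.L, at 1608 to 3629.6 FPKM.

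A further 27 rows carry only a LOC name in the deposited table but a repair symbol in v10.1, and 26 of them were tested. Of these, 16 had the higher and 10 the lower mean with atrazine, beside 57.3% higher over all rows. With limma 0 had an adjusted p under 0.05 and 1 an unadjusted p under 0.05, against 5.92% of all rows. That one was pms2.L (row LOC108701593), the mismatch repair endonuclease gene, at 7.36, 6.71 and 7.17 FPKM with atrazine and 7.82, 9.95 and 9.62 FPKM in the controls. All 3 atrazine values lay below the controls, and the log2 fold change was -0.32 ± 0.14 (SE, n = 3 and 3; limma, unadjusted p = 0.0468, adjusted p = 0.693). The checkpoint kinase copy chek1.L was at 69.4, 59.1 and 60.3 FPKM with atrazine and 69.6, 74.6 and 74.4 FPKM in the controls, also without overlap, and the damage sensor copy ddb2.S at 8.40, 7.11 and 7.50 FPKM with atrazine and 9.79, 10.3 and 8.67 FPKM in the controls. In the other direction blmh.L (row LOC108707946) was at 11.3, 12.2 and 11.6 FPKM with atrazine and 11.2, 8.68 and 9.93 FPKM in the controls, so that 4 of the 26 rows did not overlap, beside 11.3% of all tested rows. The recombination gene brca2.L and the damage sensor gene xpc.L had log2 differences of 0.02 and -0.12.

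The L and S copies of repair genes often stood at different levels. With v10.1 symbols 12 pairs were found, and 11 had both copies above the filter. The L copy was higher in all 6 libraries in 7 pairs and the S copy in 3 (parp2, ddb2 and xrcc1), and blm was mixed. Of all 4686 tested pairs of the whole table, L was higher throughout in 1982 and S in 1447, and 1257 were mixed. The median absolute log2 difference was 0.76 for repair pairs and 0.59 for all pairs, so such differences are common in the whole table. The repair pairs include blmh and parp12, which are outside repair in the strict sense. The L copy of rad50 exceeded its S copy by 7.04 to 28.2 times over the 6 libraries, and the L copy of rbbp8 by 5.51 to 25.1 times. The S copy of parp2 exceeded its L copy by 6.29 to 12.4 times. For parp12 the L copy was 2.46 to 4.70 times and for apex1 2.20 to 2.82 times the S copy. These are ratios of FPKM, and the low copies rest on few reads. How reads shared by near-identical copies were assigned was not stated by any source used here, so the copies' levels are uncertain.

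The balance between copies was tested in 4686 pairs of the whole table with limma on the difference of log2(FPKM + 1). The adjusted p was under 0.05 for 0 of 11 repair pairs, against 0.0% of all pairs, and the unadjusted p was under 0.05 for 1, tp53bp1, against 6.21% of all pairs. Its L copy (row LOC108711429) was at 20.9, 20.4 and 23.3 FPKM with atrazine and 21.9, 29.7 and 27.1 FPKM in the controls, while the S copy, given above, was lower in control 2 and control 3. The difference of L and S on the log2 scale averaged 0.23 with atrazine and 0.77 in the controls, a change of -0.54 ± 0.21 (SE, n = 3 and 3; limma, unadjusted p = 0.0366, adjusted p = 0.747). Control 1, at 0.33, lay at the level of the highest atrazine library.

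**Figure D5:**
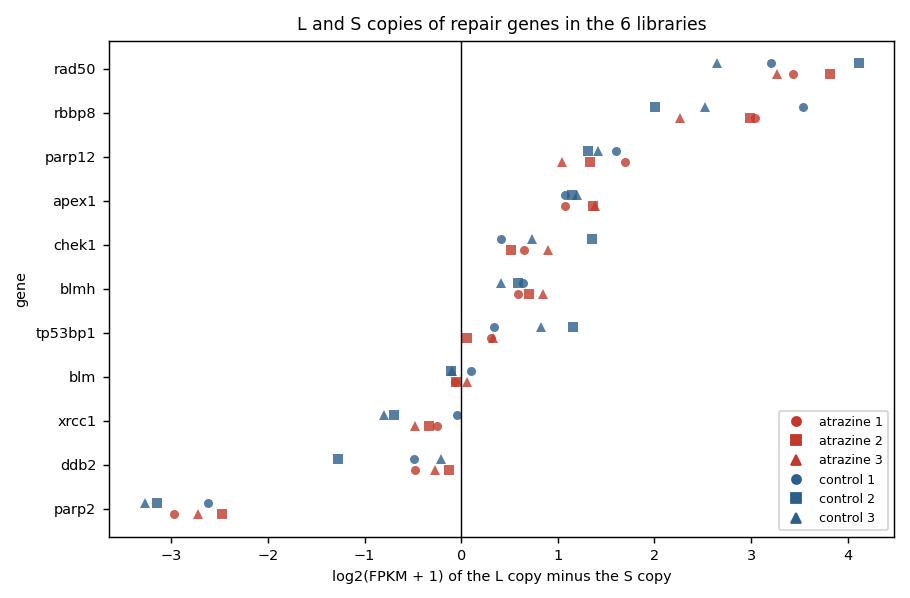
Log2(FPKM + 1) of the L copy minus the S copy for the 11 tested repair pairs in each library, red for atrazine and blue for control, marker shape giving the replicate; points right of 0 have the higher L copy. The rad50 and rbbp8 points lie far to the right, the parp2 points far to the left, and the blm points on both sides of 0.

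Circular RNAs (circRNAs), which form when an exon end is spliced back to an upstream exon start, gave a second readout of the repair genes. Of 68575 circRNAs, 356 had a repair row as host gene, and 59 of 70 host symbols had at least 1. Most were sparse: 283 were counted in 1 library, and 4 in all 6. The most counted came from the helicase gene wrn.L, at chromosome 1L from 94227165 to 94234085, with 26, 32 and 23 junction reads with atrazine and 24, 52 and 33 in the controls. The others in all 6 libraries came from ercc4.L, atm.L and nthl1.S. The ercc4.L ring had 15, 15 and 11 reads with atrazine and 20, 20 and 25 in the controls, before any correction for depth. The nthl1.S ring lies within the nthl1.S_3 row and had 10, 4 and 8 reads with atrazine and 8, 14 and 7 in the controls. In the edgeR fit, which accounts for depth, its log2 fold change was -0.10 (unadjusted p = 0.891, adjusted p = 0.999).

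Repair hosts gave 39.1 of 10000 junction reads in atrazine 1 (95% exact binomial interval 34.4 to 44.3), 41.8 in atrazine 2 (36.5 to 47.7) and 53.9 in atrazine 3 (46.7 to 61.9). In control 1, control 2 and control 3 the shares were 46.7 (41.8 to 52.1), 44.7 (40.4 to 49.4) and 46.9 (41.6 to 52.6). The groups overlapped, with the atrazine libraries spanning the controls. Intervals cover counting error only. Of these circRNAs 25 had at least 2 reads in at least 3 libraries and were tested in 1 edgeR quasi-likelihood fit with the rest. With edgeR 0 of 25 had an adjusted p under 0.05, against 0.0% of all 6592, and 0 an unadjusted p under 0.05, against 6.28%. A higher level with atrazine was fitted for 6 and a lower one for 19, beside 40.4% higher over all circRNAs tested. The smallest p in each direction belonged to rings of ogg1.L (2, 0 and 0 reads with atrazine; 4, 7 and 0 in the controls) and ddb1.S (3, 0 and 2 reads; 0, 2 and 0), where differences were not detectable at this depth.

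Of 1432 long noncoding RNAs tested, 5 were paired in the deposited table with a repair row as neighbour or antisense partner. One, LOC108710921, is antisense within an intron of rad50.L, at 0.102, 0.257 and 0.0667 FPKM with atrazine and 0.668, 0.531 and 0.648 FPKM in the controls. Its groups did not overlap, as in 12.6% of all tested long noncoding RNAs. It passed the filter on low values only through the controls, so a difference was built in. The log2 fold change was -0.50 ± 0.15 (SE, n = 3 and 3; limma, unadjusted p = 0.0112, adjusted p = 0.612). No source used here states whether counting used the strand, so its reads and those of rad50.L cannot be told apart. At an unadjusted p under 0.05 it was the only one of the 5, against 6.77% of all tested long noncoding RNAs. Because the filter built in its difference, no conclusion is drawn from its p, its lack of overlap or this count. With atrazine 4 of the 5 had the higher mean, beside 55.9% of all. The others stood beside parp11.L, parp11, xpa.L and atrip.S, and their groups overlapped.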

How the data were processed

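Testis RNA of 3 atrazine and 3 control libraries was analysed. The authors deposited FPKM values per mRNA and per long noncoding RNA, per the file headers. They also deposited signal columns with a header of counts whose values are not whole numbers. These appear to be reads scaled library by library and were used for the depth estimate and 1 alternative. The circRNA table holds raw counts of back-splice junction reads as deposited, none of them equal to 1. CASAVA 1.8, Bowtie2 and HISAT2 are named per the submitters' processing notes, while the quantifier, circRNA caller, annotation and genome build were not given in the sources used here. Samples were grouped by title. Coordinates are those of the files, counted from 1.

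From the FPKM, limma 3.58.1 with a mean-variance trend was fitted to log2(FPKM + 1), a pseudocount of 1, over rows reaching 0.5 FPKM in 3 or more libraries, with Benjamini-Hochberg adjustment over all of them and a threshold of 0.05. Long noncoding RNAs were fitted likewise, as an addition. L to S differences were fitted with limma without the trend, over pairs with both copies above the filter. The circRNA counts were tested with edgeR 4.0.16 (quasi-likelihood, TMM factors, at least 2 reads in at least 3 libraries), and with DESeq2 1.42.0 as an alternative. The limma fit of mRNA rows and the edgeR fit of circRNAs were tested on simulated data first, and the other fits were not. Rows without a symbol were named by gene number from NCBI's annotation of Xenopus_laevis_v10.1, whose coordinates were not used; all 67 repair rows with a gene number matched it.

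The members, roles and lists were chosen with earlier results of these data known. Rows were named in full by rule: the 6 of smallest p on either side, the 5 highest, and the smallest p of a role with none; the other rows named were chosen after their values were seen. Alternatives were other pseudocounts, filters and scalings, a replicate block, each library left out, and other names. Some repair genes are counted in the totals and are not reported here by name or drawn. With 3 libraries a group the precision is set by the spread between libraries.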

Additional observations from a re-analysis of the deposited data

How the results depend on the processing

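Of all 72 tested repair rows, 30 changed sign under at least 1 alternative, none with a fold change beyond 0.18 in size: 15 did so without control 2, 3 to 8 without any other single library, 5 with median-of-ratios scaling (ercc3.L, at -0.03, went lowest) and 2 with the deposited signal (pms1.S at 0.22 and rad50.L at 0.000791). The 16 rows chosen by rule did not change sign under any alternative run: of their comparisons, 223 kept their side of the threshold and 1 came to pass it, nthl1.S_3 without control 1 (1.32). Over all mRNA rows, limma called 0 rows, and 1 on log2 of the deposited signal, an alternative chosen after seeing the data. Leaving out 1 library gave 0 to 5 called rows (5 without control 1, 1 without atrazine 3) and 0 to 1 called repair rows (1 without control 1). The median repair fold change ran from 0.01 without control 2 to 0.15 without control 1, and was 0.03 with median-of-ratios scaling, where the median of all rows was 0.00361 and 45 repair rows had the higher and 27 the lower mean. At an unadjusted p under 0.05 there were 0 to 20 repair rows with 1 library left out, and 2 with no filter on low values or with the deposited signal. Taking members by v10.1 symbols gave a median of 0.07, and leaving out nthl1.S, nthl1.S_2, xrcc1 and xrcc1_2 gave 0.06. The row nthl1.S_3, which v10.1 also names otherwise, was kept in that median. For circRNAs, edgeR called 0, or 3 with no filter on low counts, 1 with the replicate block, and 0 to 2 with 1 library left out (2 without control 1, 2 without control 3); DESeq2 called 0, and no alternative called a circRNA of a repair host. The cause of these moves was not tested. Same-numbered libraries did not deviate together (correlations of 0.03, -0.35 and -0.04). The labels do not say whether the numbers pair samples, and correlations over genes with 3 libraries a group cannot settle it. With the replicate block limma called 0 repair rows, and 1031 of all mRNA rows, against 1410, had an unadjusted p under 0.05. No L to S pair was called by limma under any alternative. The count test planned on reads recovered from the deposited signal was not run, because some values are too small to be whole reads. Depth limits the low rows most in atrazine 3, where the median row has 16.7 reads per 1 FPKM, compared with 38.2 in control 1.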
